A study of Rattus norvegicus with 4 samples.

Results

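Cyclic AMP signalling in the juvenile rat testis was followed through 10 genes: the phosphodiesterases Pde4a, Pde4b, Pde4d and Pde3b, the protein kinase A (PKA) subunits Prkar1a, Prkar2a, Prkar2b and Prkaca, and the transcription factors Crem and Creb1. They were chosen by name. Every probe set, the group of short probes that gives 1 intensity for a transcript, was taken where the platform annotation gave exactly 1 gene symbol and that symbol was one of these. This found 19 probe sets among 8799 on the array, and 10 genes among 4736 with a symbol of their own. None of them passed the test over all probe sets. Pde4b and Crem were lower on all of their probe sets after the FSH antibody, with no overlap between the groups. Of these 8 probe sets 3 were too dim to be tested, and some share a design sequence. Over all tested probe sets, 15.5% were lower without overlap and 21.9% higher.

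The study used male Sprague Dawley rats, which are outbred, and gave them for 4 days either a control sheep immunoglobulin or an antibody raised in sheep against rat follicle-stimulating hormone (FSH). Testis RNA was measured on set A of the Affymetrix rat U34 arrays, on 2 arrays per treatment with 1 RNA sample each. The ages in the labels conflict. The treatment protocol starts injections on day 18 and collects on day 22, while the series design starts them on day 14. Each source name gives postnatal day 18 with antibody for 4 days. Postnatal day 4 stands in the title of antibody replicate 2, so the group of that array rests on its source name. The extraction text describes each RNA sample as a pool of about 20 organs, called ovaries there, while each source name gives testis and 1 animal. How many animals a sample stands for is not settled, and p-values measure the spread between these RNA samples only. Array medians were between 36.5 and 40.4. The glycoprotein Clu, listed below among Sertoli cell markers, was bright, between 6439.6 and 7459.2, which by itself does not settle the organ.

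As background, FSH binds a receptor on Sertoli cells, the cells that nurse the germ cells, and this receptor raises cyclic AMP through the stimulatory G protein and adenylyl cyclase. Cyclic AMP releases the catalytic subunits of PKA from their regulatory subunits, and PKA phosphorylates CREB and its relative CREM, which bind cyclic AMP response elements in target promoters. Phosphodiesterases break cyclic AMP down. Phosphodiesterases of the PDE4 class in Sertoli cells, and the CREM repressor made from an internal promoter, are known as genes that cyclic AMP itself induces, which makes them feedback brakes on the signal.

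Among the phosphodiesterases, Pde4b stood lowest relative to its controls. It encodes a cyclic AMP-specific enzyme of the PDE4 class. Its brightest probe set (rc_AA799729_g_at) read 252.6 and 223.4 in the controls and 113.3 and 72.4 after the antibody. Both antibody values lay under both control values. The mean was 238.0 ± 20.6 (SD, n = 2) in the controls and 92.9 ± 28.9 after the antibody, so the control mean was 2.56 times the antibody mean. On a log2 scale with 16 added to each intensity, where the differences of dim probe sets come out too small, the change was −1.25 ± 0.21 (SE), with a 95% interval from −1.72 to −0.77. By limma with Benjamini-Hochberg adjustment over 5252 probe sets the adjusted p was 0.0561, outside the threshold of 0.05. Limma gave an adjusted p of 0.0499 with a constant of 64 in place of 16, and 0.0063 with the replicate number as a block. It missed the threshold in the other settings that kept all arrays. There it was 0.0545 with the 60th percentile filter, 0.0655 with a constant of 1 and 0.0782 with no intensity trend. Median centring gave 0.0812, quantile normalization 0.136 and no filter 0.224. With 1 array left out, the change ranged from −1.52 to −0.97. Without control replicate 1 or 2 the adjusted p missed the threshold again. With 1 array left in a group, the spread comes from the other group alone, so passes without an antibody array are not counted. The testis is a mixed tissue, so fewer cells of a type and less RNA per cell cannot be told apart for this or any later value.

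The other Pde4b probe sets were lower too. M25350_s_at read 46.1 and 53.0 in the controls and 24.6 and 30.4 after the antibody, a change of −0.59 ± 0.20 with an interval from −1.05 to −0.14 (limma, adjusted p = 0.534, unadjusted p = 0.0161). J04563_at read 48.3 and 40.8 in the controls and 8.0 and 10.1 after the antibody, and rc_AA799729_at read 15.1 and 13.8 against 10.4 and 7.2. Neither of these was tested, because its mean log2 value (5.28 and 4.78) lay under the filter level of 5.30, which corresponds to an intensity of 23.4. The files hold no detection calls, so whether the antibody arrays gave these probe sets any signal above background cannot be told. The untested differences were −1.27 for J04563_at and −0.30 for rc_AA799729_at. The 4 probe sets come from 3 sequence accessions, since both rc_AA799729 sets were designed from the same one.

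Pde4a and Pde4d encode the sister enzymes of the PDE4 class. Pde4a, on M26715_at, read 71.3 and 59.7 in the controls and 57.2 and 70.2 after the antibody, and on M25348_s_at 30.3 and 36.7 against 31.8 and 30.1. The groups overlapped on both. The changes were −0.03 (interval −0.46 to 0.39) and −0.07 (interval −0.54 to 0.39), and both turned in sign when 1 array was left out. Both Pde4d probe sets were too dim to be tested. L27060_at read 18.4 and 34.3 in the controls and 9.5 and 27.0 after the antibody, with overlap. L27059_s_at read 3.4 on each control array and 1.1 and 0.9 after the antibody. As for the dim Pde4b probe sets, whether these values stand above background cannot be told.

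Pde3b, a phosphodiesterase that also responds to insulin signalling in fat cells, went the other way. Z22867_at read 29.9 and 21.7 in the controls and 35.2 and 37.1 after the antibody, and it was the only member probe set whose antibody values both lay above the controls. Its change of 0.33 ± 0.21 (interval −0.15 to 0.81) did not pass (limma, adjusted p = 0.763). Whether it differs from that of Pde4b was not tested. The plot of member intensities by array shows these values for all 19 probe sets.

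**Figure D1:**
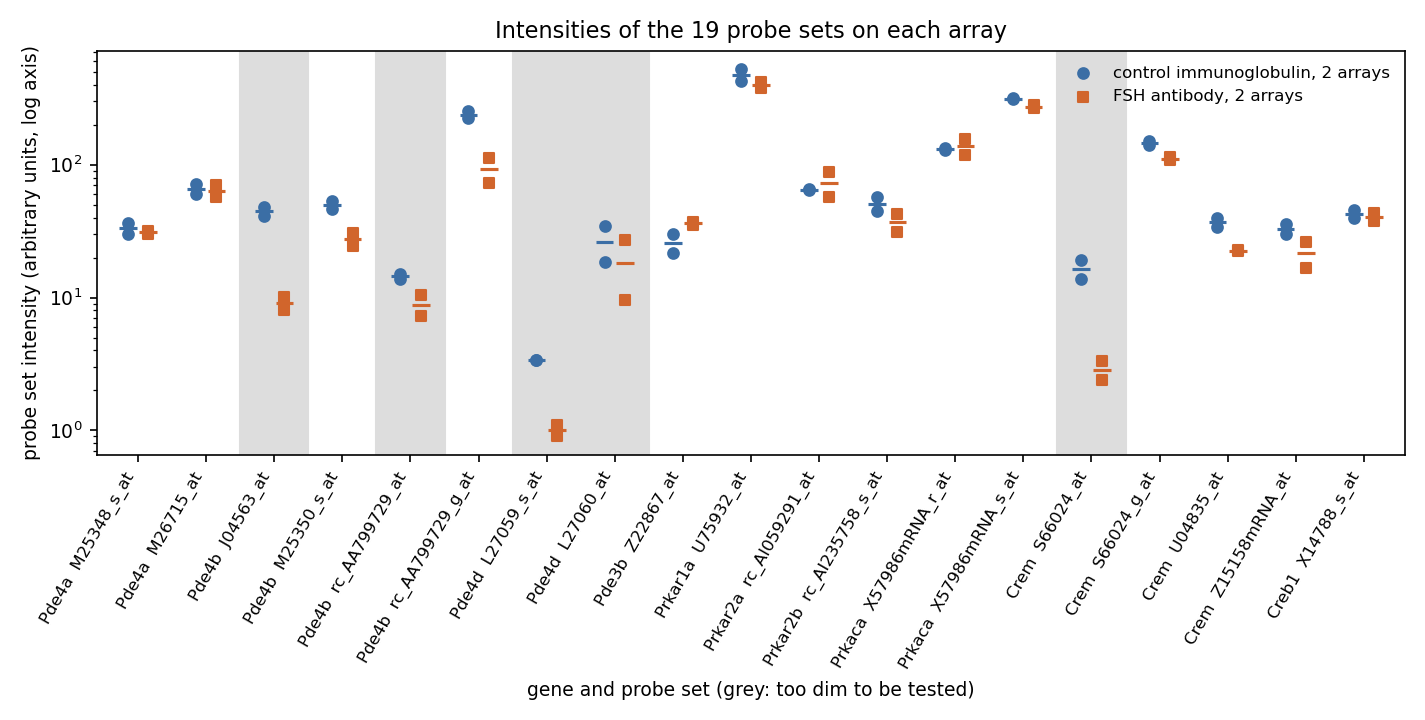
Intensity of each of the 19 probe sets (arbitrary units, log axis) on the 2 control arrays (circles) and the 2 antibody arrays (squares), with short lines at the group means and grey shading where a probe set was too dim to be tested. The 4 Pde4b and the 4 Crem probe sets have both squares under both circles; the 2 Pde4a probe sets overlap.

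The 5 probe sets of the PKA subunits gave changes between −0.34 and 0.11 and none passed. Prkar1a, the regulatory subunit of the type I kinase, read 423.3 and 524.5 in the controls and 417.9 and 377.7 after the antibody on U75932_at. The groups were separate by a narrow margin, and the change was −0.24 ± 0.18 (interval −0.64 to 0.16; limma, adjusted p = 0.815). Prkar2b, a regulatory subunit of the type II kinase, read 57.1 and 44.6 against 31.3 and 42.2 on rc_AI235758_s_at. Again both antibody values were lower, with a change of −0.34 ± 0.21 (interval −0.82 to 0.13; limma, adjusted p = 0.739). Prkar2a, the other type II regulatory subunit, read 65.3 and 64.5 in the controls and 57.4 and 87.5 after the antibody on rc_AI059291_at. The antibody arrays lay on either side of the controls, with a change of 0.11 ± 0.21 (interval −0.36 to 0.58).

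Prkaca encodes the alpha catalytic subunit of PKA, and both of its probe sets derive from 1 accession. X57986mRNA_s_at read 316.5 and 310.0 in the controls and 281.8 and 266.8 after the antibody, a change of −0.18 ± 0.16 (interval −0.55 to 0.19; limma, adjusted p = 0.849). X57986mRNA_r_at read 133.0 and 130.1 against 117.8 and 156.7, a change of 0.04 ± 0.19 (interval −0.38 to 0.46). The first had separate groups and the other did not. Their changes had opposite signs, and both intervals include 0. The plot of group differences gives these changes with their intervals.

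**Figure D2:**
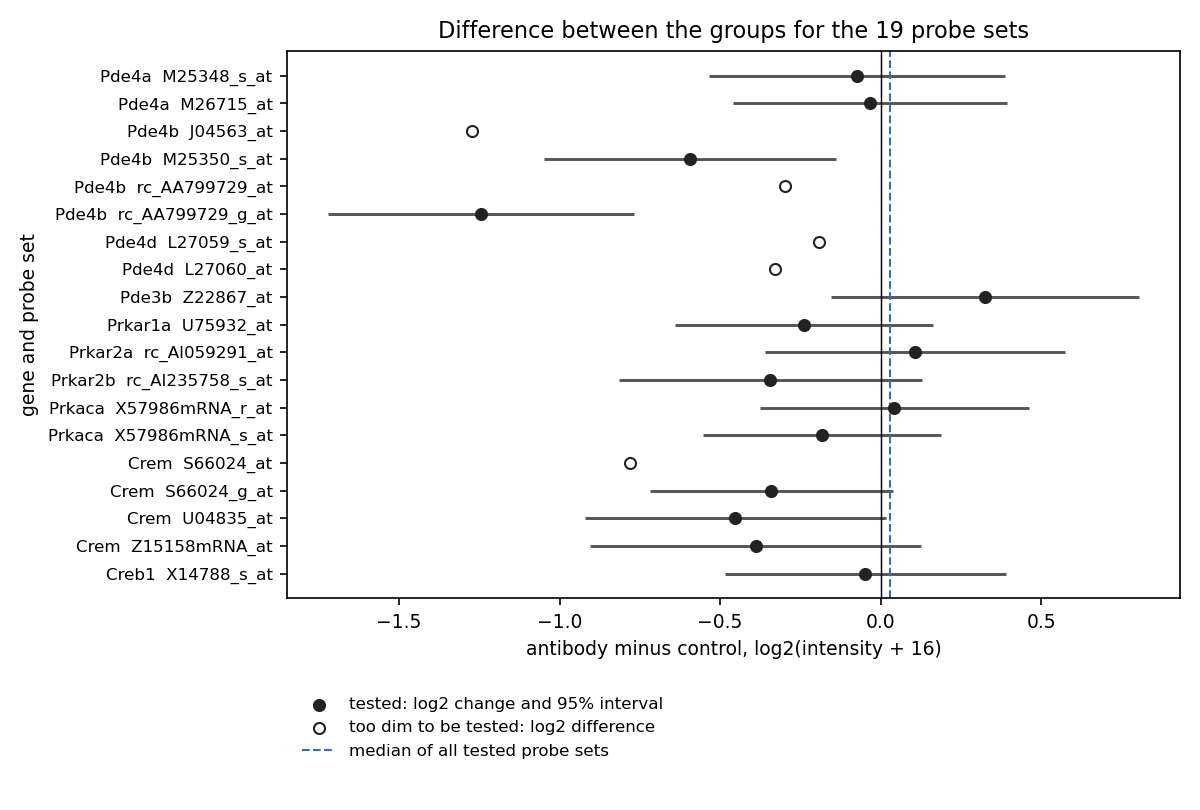
Antibody minus control on the log2(intensity + 16) scale for the 19 probe sets, with 95% intervals for the 14 tested (filled points) and the bare difference for the 5 that were too dim (open points); the dashed line marks the median of all tested probe sets, 0.03. The intervals of Pde4b M25350_s_at and rc_AA799729_g_at lie below 0, and the other 12 include it.

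In the CREB family, Crem was lower and Creb1 was not separated. Crem encodes activators and repressors that bind the cyclic AMP response element, and germ cells past meiosis also use an activator form. Its brightest probe set, S66024_g_at, read 149.8 and 139.9 in the controls and 114.0 and 108.0 after the antibody, a change of −0.34 ± 0.17 (interval −0.72 to 0.04; limma, adjusted p = 0.65). U04835_at read 33.8 and 39.9 against 22.4 and 22.7 (−0.45 ± 0.21, adjusted p = 0.634). Z15158mRNA_at read 30 and 35.7 against 26.4 and 16.7 (−0.39 ± 0.23, adjusted p = 0.717). In all 3 both antibody values were under both controls, and none passed.

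The remaining Crem probe set, S66024_at, read 13.9 and 19.1 in the controls and 2.4 and 3.3 after the antibody. It was too dim to be tested, and its untested difference was −0.78. Whether its values stand above background cannot be told either. It shares its design sequence with S66024_g_at, so these values are not independent of each other. Both U04835_at values after the antibody and 1 of Z15158mRNA_at lay under the intensity of 23.4 that matches the filter level, so these probe sets passed it through the control arrays. The annotation pairs the probe sets with the gene and not with an isoform, so activator and repressor forms were not told apart. Creb1, the widely used CREB factor, read 45.4 and 39.7 in the controls and 38.0 and 43.3 after the antibody on X14788_s_at. These overlapped, with a change of −0.05 ± 0.19 and an interval from −0.49 to 0.39.

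Promoter sequences are shown for Crem, whose probe sets were lower together, and for Creb1, whose probe set overlapped. They come from RefSeq windows of assembly GRCr8, from 250 bases before to 50 after an annotated start, and 8 of the 10 genes matched by symbol. Pde3b and Prkar2a did not. The windows were searched on both strands for the short element TGACG and for TGACGTCA, the full palindromic cyclic AMP response element, which holds TGACG on both strands. The capitals mark every match to TGACG or its reverse complement.
Crem, upstream start (chr17:58933816-58934115, plus strand): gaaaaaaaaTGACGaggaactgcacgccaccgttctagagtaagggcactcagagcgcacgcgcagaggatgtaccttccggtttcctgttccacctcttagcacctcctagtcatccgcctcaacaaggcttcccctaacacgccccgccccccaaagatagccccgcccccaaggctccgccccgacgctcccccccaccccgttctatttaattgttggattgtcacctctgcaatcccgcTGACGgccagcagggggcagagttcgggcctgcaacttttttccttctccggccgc
Crem, internal start A (chr17:58984547-58984846, plus strand): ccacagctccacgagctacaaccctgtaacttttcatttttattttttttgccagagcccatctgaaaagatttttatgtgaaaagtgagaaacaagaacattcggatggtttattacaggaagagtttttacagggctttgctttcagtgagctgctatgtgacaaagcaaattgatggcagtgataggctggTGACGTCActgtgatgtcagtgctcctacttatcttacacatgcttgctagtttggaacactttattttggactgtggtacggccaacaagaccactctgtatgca
Crem, internal start B (chr17:58985240-58985539, plus strand): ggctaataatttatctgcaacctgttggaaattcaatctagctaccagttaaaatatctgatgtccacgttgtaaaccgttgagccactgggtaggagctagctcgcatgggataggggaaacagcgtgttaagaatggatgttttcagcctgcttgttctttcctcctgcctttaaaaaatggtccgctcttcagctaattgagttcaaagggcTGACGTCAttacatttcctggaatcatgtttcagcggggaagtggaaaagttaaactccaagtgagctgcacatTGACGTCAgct
Creb1, upstream start (chr9:73397259-73397558, plus strand): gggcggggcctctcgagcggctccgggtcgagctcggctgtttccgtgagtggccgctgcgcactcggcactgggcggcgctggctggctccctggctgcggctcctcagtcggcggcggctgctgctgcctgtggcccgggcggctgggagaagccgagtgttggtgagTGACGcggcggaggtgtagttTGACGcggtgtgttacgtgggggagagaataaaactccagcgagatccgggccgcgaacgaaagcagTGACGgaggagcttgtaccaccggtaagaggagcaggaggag

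The full element stood once in the window of Crem internal start A, beginning at position −56 from the start, and at −35 and 40 in that of internal start B. It was found in 612 of the 33469 windows of the table (1.83%) and in 2 of the 19 windows of the matched members, both of Crem. The upstream Crem start held only the short element, at −241 and −6. The Creb1 window shown held the short element at −80, −59 and 9. Its other window held none. The short element occurred in 21.2% of all windows and in 9 of the 19 member windows (47.4%). Neither Pde4b window (chr5:122028706-122029005 and chr5:122222323-122222622) holds these letters, nor do those of Prkar1a and Prkar2b. Of the rest, 2 of 4 Pde4a windows, 2 of 5 Pde4d windows and the Prkaca window held the short element. These matches describe the letters in the windows, and which start was in use in these testes was not measured.

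Over the 19 probe sets, 14 were bright enough to be tested. After Benjamini-Hochberg adjustment limma called 0 of the 14, beside 14 of all 5252 (0.267%). At an unadjusted p under 0.05 there were 2, both of Pde4b, beside 8.11% of all tested. With no filter, limma called 0 of the 19 and gave an unadjusted p under 0.05 to 5, beside 0 and 702 (8.03%) of all 8740. Groups were separate with the antibody lower in 8 of the 14, beside 15.5% of all tested probe sets, and with the antibody higher in 1, beside 21.9%. Counted over genes by the brightest probe set, 5 of the 9 tested member genes were lower without overlap (Pde4b, Prkar1a, Prkar2b, Prkaca and Crem), beside 15.1% of 3169 genes. The median change of these 9 genes was −0.18, beside 0.03 over all genes. Probe sets of 1 gene share their target, and a probe set bright on 1 side only can pass the filter through that side, so these counts are a description. Under quantile normalization and under median centring all 4 Pde4b and all 4 Crem probe sets were again lower without overlap, beside 16.6% and 19.6% of all tested probe sets. The sign of the tested Prkaca probe set X57986mRNA_r_at turned under median centring.

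No other gene of the cyclic AMP pathway passed the test. Of 78 listed genes, 49 were on the array with a symbol of their own and 33 were tested. By limma 0 passed the adjusted threshold, and at an unadjusted p under 0.05 2 were lower and 1 was higher, beside 3.88% lower and 3.98% higher of all 3169 genes, of which 0.284% passed the adjusted threshold. Of the 33, 9 had a negative and 24 a positive change, with a median of 0.12 beside 0.03 over all genes. That median was 0.050 without antibody replicate 1, 0.054 with no filter and 0.070 with quantile normalization, median centring or a constant of 64. Separate groups were found in 4 with lower and 9 with higher values after the antibody, beside 15.1% and 22.4% of all genes.

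Among receptors and G proteins (11 tested, median 0.15), the receptor for FSH itself gave no clear difference. Fshr read 67.9 and 74.1 in the controls and 114.0 and 71.6 after the antibody on L02842_g_at, which overlap. The inhibitory G protein subunit Gnai1 read 84.7 and 60.9 against 38.2 and 47.2 (−0.59 ± 0.21; limma, adjusted p = 0.534). The adenosine receptor Adora2a, which couples to the stimulatory G protein, read 41.7 and 32 against 53.5 and 66.8 (0.53 ± 0.20; adjusted p = 0.580). Gnas, the stimulatory subunit, was separate and higher on its brightest probe set, at 1635.1 and 1521.6 against 2088.8 and 1688.5, with a change of 0.25 ± 0.17. Its other tested probe sets gave 0.16, 0.16 and 0.60, and none passed. Of the adenylyl cyclases, which make cyclic AMP, 3 were tested and gave 0.01 (Adcy3), 0.04 (Adcy6) and 0.16 (Adcy2).

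Other phosphodiesterases (4 tested, median −0.12) included Pde4c, the remaining gene of the PDE4 class. It read 102.8 and 76.8 in the controls and 37.8 and 78.8 after the antibody on L27061_g_at, with overlap and a change of −0.56 ± 0.27 (limma, adjusted p = 0.636). Pde7a, another cyclic AMP-specific enzyme, read 46.4 and 49.3 against 39.6 and 35.2 (−0.26 ± 0.19), and Pde3a overlapped (0.25 ± 0.24). Neither passed. Further PKA subunits, inhibitors and anchoring proteins (8 tested, median 0.10) included the anchoring proteins Akap8 (0.23 ± 0.18), Akap1 (0.20 ± 0.18) and Pakap (0.22 ± 0.20). Akap8 and Akap1 had separate groups on these probe sets, while the other tested Akap1 probe set overlapped (0.05). On the Epac branch, the PKA-independent route, the small GTPase Rap1b read 457.9 and 450.0 against 402.1 and 398.0 (−0.18 ± 0.16) and the exchange factor Rapgef3 gave −0.04.

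The other leucine zipper factors (5 tested, median 0.26) held 1 gene with lower values on its brightest probe set. There Cebpa read 37.6 and 34.2 in the controls and 23.8 and 15.8 after the antibody (−0.54 ± 0.22; limma, adjusted p = 0.580). The other Cebpa probe set, too dim to be tested, was not lower, at 8.5 and 7.1 against 8.7 and 13.7. The Cebpa relative Cebpb read 40.1 and 41.3 against 54.9 and 56.2 (0.34 ± 0.18). The stress-responsive Atf3 read 39.3 and 33.6 against 51.1 and 58.0 (0.43 ± 0.19). On the brightest probe set the groups were separate for all 3, and none passed.

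Of 15 tested genes known to respond to cyclic AMP, 1 passed as higher and 1 as lower on the brightest probe set. Nptx2 was lower on both of its probe sets and passed only on the one that was not its brightest. These 15 genes were listed with no direction set and with earlier results of these data known, so their count is no independent evidence. Igfbp3, which binds insulin-like growth factors, read 141.2 and 91.4 in the controls and 400.2 and 325.3 after the antibody (limma, adjusted p = 0.0365). Star, which moves cholesterol into mitochondria for steroid synthesis, read 75.9 and 86.2 against 25.5 and 12.8 (adjusted p = 0.0418). On these probe sets both calls ended without control replicate 1, without control replicate 2, with quantile normalization, with median centring and with no filter. The other Igfbp3 probe set read 24.6 and 10.3 against 119.7 and 106.7 (limma, adjusted p = 0.0152). The other Star probe set read 60.5 and 59.2 against 19.9 and 7.5 and missed the threshold (limma, adjusted p = 0.0653). Nptx2, a secreted pentraxin, gave −0.95 ± 0.17 on its brightest probe set (adjusted p = 0.0703) and −1.69 ± 0.18 on the other (adjusted p = 0.0152), a call that ended without either control array, with quantile normalization and with no filter, where limma called no probe set at all. Inha, the inhibin alpha subunit whose promoter is a known CREB target, read 1588.4 and 1224.2 against 804.3 and 682.0 (−0.90 ± 0.19; adjusted p = 0.122), and Shbg, the androgen-binding protein, 890.7 and 857.2 against 530.5 and 563.9 (−0.66 ± 0.16; adjusted p = 0.217). The other Inha probe set gave −0.49 ± 0.24 (limma, adjusted p = 0.634). The list had 9 positive and 6 negative changes and a median of 0.28. The median was 0.13 without control replicate 1, 0.16 without antibody replicate 2, 0.15 with a constant of 64, 0.11 with probe sets averaged per gene, 0.10 with no filter and 0.052 with the 60th percentile filter.

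**Figure D3:**
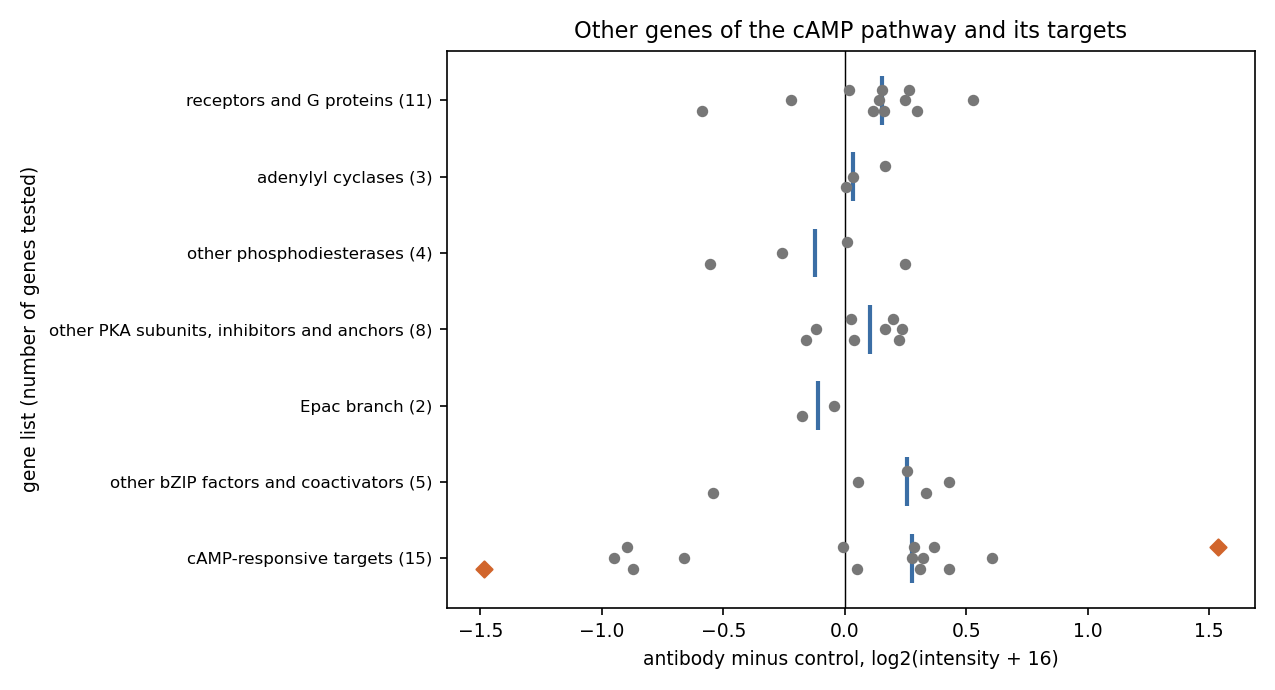
Antibody minus control on the log2(intensity + 16) scale for each tested gene of the other cyclic AMP pathway lists and of the target list (brightest probe set per gene), with the list median as a vertical bar. Diamonds mark the 2 genes past the adjusted threshold, Star at −1.49 and Igfbp3 at 1.54; all 33 other pathway genes lie between −0.59 and 0.53.

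Several cell types of the testis use these genes, and marker levels are given beside the members. The summed intensity of 16 Sertoli cell markers overlapped between the groups, at 16519.6 and 15373 in the controls and 15467 and 16242.6 after the antibody. Clu and Aard, which overlapped, hold much of that sum, and single markers differed. Of the 15 tested, Testin, a Sertoli cell junction protein, rose from 28.2 and 33.1 to 114.4 and 127.9 (1.56 ± 0.18; limma, adjusted p = 0.0152), Ctsl and Amh were separate and higher without passing, and Inha, Shbg and Wt1 separate and lower without passing. The 9 Leydig cell and steroidogenic genes summed to 2955.1 and 2942.6 against 2325.2 and 2552.0, lower after the antibody, with 1 of the 9 tested called (Star). Cyp17a1, which overlapped, and Fdx1, which was separate and lower, hold much of that sum. Of the 9, 3 were separate and lower and 3 separate and higher, so the list did not move in 1 direction. Over all genes tested, 15.1% were separate and lower and 22.4% separate and higher. The 10 meiotic spermatocyte markers summed to 1377.9 and 2197.7 against 1715.6 and 1109.7, and the 9 spermatid markers to 371.3 and 681.6 against 512.5 and 447.3, so the arrays of 1 treatment differed in germ cell signal. Endothelial markers (6 genes) summed to 223.7 and 222.8 against 291.1 and 353.6, higher after the antibody. Edn1 held much of that rise, at 38.3 and 34 against 88.1 and 89.8. Of the 4 tested, 3 were separate and higher and 0 separate and lower, beside 22.4% and 15.1% of all genes. Macrophage and immune markers (9 genes) summed to 534.4 and 546.6 against 585.1 and 804.6, also higher. Of the 8 tested, 4 were separate and higher, beside 22.4% of all genes. C1qb was separate and lower, at 31.3 and 49.2 against 18.7 and 17.3. None of these genes passed. The 5 erythroid genes summed to 2165.5 and 3668 against 2001.9 and 2296.5, with overlap, and of the 4 tested Alas2, the first enzyme of heme synthesis in red cells, fell from 158.4 and 218 to 72.8 and 51.9 (−1.38 ± 0.21; adjusted p = 0.0418). The Testin and Alas2 calls both ended without either control array, with quantile normalization and with no filter. Sums also overlapped for 8 peritubular myoid and smooth muscle genes (3715.8 and 3942.1 against 4224.2 and 3186.9) and 6 spermatogonia genes (1624.5 and 1601.9 against 1686.1 and 1431.1). No marker on the array was listed at 0 on any array. The part of these shifts in the values of Pde4b and Crem was not tested.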

How the data were processed

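Testis RNA of rats was measured on 4 Affymetrix rat U34 arrays (set A). The authors deposited 1 linear intensity per probe set and array, without detection calls. The software is not stated in the labels. The trimmed mean (2% off each end) lay between 125.16 and 125.18 on all 4 arrays, so they had been scaled before deposit, while the background correction is unknown. Gene symbols came from a platform annotation (7018 probe sets with 1 symbol, 308 with several, 1473 with none), updated by Entrez identifier through a RefSeq table of GRCr8.

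Values were analysed as log2(intensity + 16). The dimmest 40% of probe sets by mean log2 value and 59 controls were left out, leaving 5252. Groups were compared two-sided in R 4.3.3 with limma 3.58.1 (lmFit, then eBayes with a trend in intensity), with Benjamini-Hochberg adjustment at 0.05; the code was tested on simulated data. With 2 arrays a group, their number limits the precision, and exact permutation of single values cannot go below p = 0.333. Lists use the brightest probe set per gene. Every member probe set is named; of each other cyclic AMP list, the 3 genes with the smallest p, all called genes, and Fshr, Star, Inha and Shbg. Clu, Aard, Amh, Ctsl, Wt1, Cyp17a1, Fdx1, Edn1, C1qb, Ptger2 and Adcy5 were named after their values were seen. The members and lists were chosen with earlier results of these data known. Alternatives were quantile normalization, median centring, constants of 1 and 64, no filter or the 60th percentile, no trend, the replicate block, each array left out and, for lists, averaged probe sets.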

Additional observations from a re-analysis of the deposited data

How the results depend on the processing

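The direction of Pde4b, Pde3b, Prkar1a, Prkar2b, Crem and the Prkaca probe set X57986mRNA_s_at held in every alternative that tested them. For the shifts listed here the cause was not tested. By construction, a filter alters how many probe sets enter the test, and with 3 arrays 1 residual degree of freedom is left and the single array of a group is taken to vary as the other group does. Against 14 called probe sets, quantile normalization and no filter called 0, where limma gave 420 and 702 an unadjusted p under 0.05, median centring called 4, the replicate block 39, and leaving out 1 array 0 to 154. Without control replicate 1 or control replicate 2 limma called 0, where 366 and 268 had an unadjusted p under 0.05. Of the members, against 0, a constant of 64 called 1 (of 17 over all probe sets) and the replicate block called 1, in both cases Pde4b rc_AA799729_g_at (−0.96, adjusted p = 0.0499, and −1.25, adjusted p = 0.0063), and leaving out 1 array called 0 to 2. Its change ranged from −1.52 to −0.97 with 1 array left out. Without antibody replicate 1, and without antibody replicate 2, J04563_at entered the test because a dim array no longer lowered its mean. It passed the filter there through the control arrays, so its result in those settings is no added evidence. Deviations of arrays with the same replicate number correlated at 0.0039 over 5252 probe sets. With 2 arrays a group this cannot exclude a shared batch, and the block is not read as a pairing.

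The sign turned for Prkaca X57986mRNA_r_at with median centring (−0.0034) and without antibody replicate 2 (range −0.14 to 0.23), for Prkar2a without antibody replicate 2 (−0.14 to 0.36), for Pde4a M26715_at without control replicate 1 or antibody replicate 1 (0.069 and 0.085, range −0.15 to 0.085), for Pde4a M25348_s_at without control replicate 2 (−0.17 to 0.020) and for Creb1 without control replicate 1 or antibody replicate 1 (0.023 and 0.020, range −0.12 to 0.023).

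For the 2 called target genes, 0 were called with quantile normalization, median centring or no filter, 1 with a constant of 1 or the 60th percentile filter (median 0.052 at that filter), 4 with the block, and 0 to 5 with 1 array left out. The other pathway genes had 0 calls, and 0 to 1 with 1 array left out. Of the marker lists, the 1 Sertoli cell call became 0 with quantile normalization or no filter, 2 with the block and 0 to 2 with 1 array left out. The 1 Leydig cell call became 0 with quantile normalization, median centring, a constant of 1, either other filter or the mean of probe sets, 2 with the block and 0 to 2 with 1 array left out. The 1 erythroid call became 0 in the same settings other than the 60th percentile filter and the block, and also with no trend, and 0 to 1 with 1 array left out. The block called 1 endothelial gene. With 1 array left out the calls were 0 to 1 for endothelial, immune and spermatogonia markers and 0 to 4 for meiotic markers. List medians with 1 array left out ran from −0.10 to 0.021 (Leydig), −0.034 to 0.18 (Sertoli), −0.73 to 0.062 (erythroid), 0.14 to 0.59 (immune), −0.66 to −0.065 (meiotic), −0.25 to 0.043 (myoid), −0.25 to 0.20 (spermatid) and −0.0060 to 0.16 (spermatogonia). The spermatid median, 0.0038, was −0.042 with quantile normalization, −0.043 with median centring, −0.00072 with a constant of 64 and −0.067 at the 60th percentile filter. The spermatogonia median, −0.0017, was 0.0029 with a constant of 1 and 0.075 with the mean of probe sets, which gave 0.0011 for the Leydig list.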

Other observations

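Probe sets designed from the same sequence gave ratios of different size. For Crem, the control mean was 5.79 times the antibody mean on the dim S66024_at and 1.30 times on the brighter S66024_g_at. For Pde4b it was 1.64 times on the dim rc_AA799729_at and 2.56 times on the brighter rc_AA799729_g_at, and 4.92 times on J04563_at, from another sequence. These ratios were picked out after the values were seen, and how far an unknown background weighs on the dim ones was not tested.

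The mean log2 value of J04563_at was 5.28, just under the filter level of 5.30, so the Pde4b probe set with the largest ratio was left out of the tests. With no filter its unadjusted p by limma was 0.00045 and its adjusted p 0.224. Among pathway genes too dim to be tested, Ptger2 and Adcy5 were picked out after their values were seen. The prostaglandin receptor Ptger2 read 5.7 and 5.1 in the controls and 16 and 15.2 after the antibody. The adenylyl cyclase Adcy5 read 23.1 and 30 against 13 and 15.4 on its brightest probe set. Its other probe sets were not lower. They read 12.5 and 10.9 against 13.6 and 12.2, and 5.5 and 1.7 against 5.2 and 5.5.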
